A study of Mus musculus with 8 samples.

Results

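Glycolysis in mouse embryonic stem cells (ESCs) was examined through 32 genes for glucose uptake, the glycolytic steps, and the handling of pyruvate and lactate. They were taken by symbol from a list that names 2 glucose transporters, the enzymes from hexokinase to pyruvate kinase with several isozymes, 3 PFKFB enzymes that control phosphofructokinase, 2 lactate dehydrogenase subunits, 4 pyruvate dehydrogenase kinases with 2 pyruvate dehydrogenase subunits, 2 monocarboxylate transporters, and Bnip3. All 32 were found among the 20278 genes listed in the files, and all 32 were among the 15287 that had enough counts to be tested. The rule goes by symbol and sets no threshold on a measured value.

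The samples were N33, an ESC line of C57BL/6 mice, and RNA was sequenced from 2 replicates in each of 4 culture conditions, 8 samples in all. Every condition received leukaemia inhibitory factor (LIF) at 1000 U/ml. In −F the cells grew on gelatin, with 20% fetal bovine serum in knockout DMEM and no feeders. In F they grew in that serum medium on feeders, which are mouse embryonic fibroblasts stopped from dividing with mitomycin C. F2i was F with 2i, the paired inhibitors CHIR99021 of GSK3 and PD0325901 of MEK, at doses not given in the sources used here. In NB2i the cells grew in N2B27, a serum-free mix of DMEM/F12 and Neurobasal with supplements, with CHIR99021 at 3 μM and PD0325901 at 1 μM, on poly-L-ornithine and laminin without feeders. N33 is a single line, and the labels do not say whether the replicates were separate cultures, so the p-values measure the spread between these samples only.

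Each sample held 20129641 to 20664488 expected counts, the reads that the authors' software assigned to genes. For 13 of the 32 genes, among them Gapdh, Aldoa, Eno1, Ldha, Pfkl and Pdk1, these counts were not whole in every sample. Part of their reads was therefore divided with other genes, and which genes these were was not tested. The 10 ESC markers checked (Pou5f1, Nanog and others) summed to 4159 to 4860 FPKM per sample (fragments scaled to transcript length and to the depth of the sample) and none was at 0 in any condition. Single markers moved within this sum. Mean FPKM went from 478 in −F to 47.1 in NB2i for Utf1, and from 25.4 to 173 for Tfcp2l1. Of the 10, 7 were higher in NB2i than in −F and 3 lower. Fibroblast markers were read for feeder RNA, since feeders had been removed by adherence before extraction. Without Fn1 and Sparc, which ESCs also express, 18 of the 20 markers summed to 48.0 to 48.9 FPKM in −F, 384 to 392 in F, 828 to 837 in F2i and 3.60 to 4.55 in NB2i. With all 20 markers the sums were 239 to 247, 713 to 734, 1595 to 1605 and 795 to 819 FPKM, in the same order. Lum and Vcam1 were at 0 in both −F samples, and Postn, Lum, Dcn, Vcam1 and S100a4 in both NB2i samples. Tagln alone gave 30.26 and 29.11 FPKM of the 18-marker sums in −F. The marker sums moved in every comparison, and the part of feeder RNA in the differences that involve F or F2i was not tested. In such bulk samples fewer cells of a type and less RNA per cell cannot be told apart.

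Glycolysis splits glucose into pyruvate in the cytosol, with a small yield of ATP and NADH. Lactate dehydrogenase then turns pyruvate into lactate, which leaves the cell through monocarboxylate transporters, or pyruvate dehydrogenase passes it to the mitochondrial citric acid cycle unless a pyruvate dehydrogenase kinase (PDK) has switched that complex off. Hypoxia-inducible factor raises many of these genes when oxygen is low, and pluripotent cells are known for a high rate of glycolysis. Several steps have isozymes, encoded by separate genes with different kinetics and regulation.

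Promoters of 6 genes, chosen after their values were seen, are shown here because hypoxia-inducible factor and the MYC family bind short cores that can be counted in them. The windows are the 250 bases before the first listed RefSeq start on build GRCm38.p6, printed on the gene's strand, and were found for 31 of the 32 genes. Slc2a3 had no entry. Capitals mark ACGTG or GCGTG on either strand, which read CACGT and CACGC where the core lies on the opposite strand, and CACGTG counts as ACGTG on both strands. Bnip3 (chr7:138909507-138909756, minus strand), Slc16a3 (chr11:120948817-120949066, plus strand), Pdk1 (chr2:71872974-71873223, plus strand) and Ldha (chr7:46845554-46845803, plus strand) fell in NB2i against −F, the first 3 by the largest amounts among the 32. Ldhb (chr6:142507958-142508207, minus strand) and Pfkp (chr13:6648772-6649021, minus strand) rose. The Slc16a3, Ldha and Pfkp windows lie inside the annotated extent of their genes, and other starts were not scanned.
Bnip3: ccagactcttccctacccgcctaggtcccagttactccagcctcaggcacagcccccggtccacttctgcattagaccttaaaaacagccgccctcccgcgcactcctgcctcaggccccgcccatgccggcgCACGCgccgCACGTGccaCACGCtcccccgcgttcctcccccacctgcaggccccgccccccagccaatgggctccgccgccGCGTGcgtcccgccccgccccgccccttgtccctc
Slc16a3: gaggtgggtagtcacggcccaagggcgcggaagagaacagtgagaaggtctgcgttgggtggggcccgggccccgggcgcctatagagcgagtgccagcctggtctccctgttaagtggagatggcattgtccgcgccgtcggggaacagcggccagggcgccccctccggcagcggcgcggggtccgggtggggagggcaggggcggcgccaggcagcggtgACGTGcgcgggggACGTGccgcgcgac
Pdk1: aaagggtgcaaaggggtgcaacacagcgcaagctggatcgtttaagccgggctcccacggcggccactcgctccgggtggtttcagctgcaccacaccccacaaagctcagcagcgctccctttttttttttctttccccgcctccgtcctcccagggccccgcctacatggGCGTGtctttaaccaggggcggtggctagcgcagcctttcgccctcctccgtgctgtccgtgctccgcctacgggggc
Ldha: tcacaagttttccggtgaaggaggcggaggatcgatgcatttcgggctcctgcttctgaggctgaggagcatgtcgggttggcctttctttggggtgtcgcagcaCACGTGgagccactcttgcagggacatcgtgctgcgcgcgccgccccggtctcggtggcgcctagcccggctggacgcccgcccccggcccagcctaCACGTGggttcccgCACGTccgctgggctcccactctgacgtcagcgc
Ldhb: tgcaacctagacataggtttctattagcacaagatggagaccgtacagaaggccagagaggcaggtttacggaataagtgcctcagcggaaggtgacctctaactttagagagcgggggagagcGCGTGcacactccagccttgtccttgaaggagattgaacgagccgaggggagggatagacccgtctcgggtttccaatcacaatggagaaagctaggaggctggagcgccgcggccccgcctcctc
Pfkp: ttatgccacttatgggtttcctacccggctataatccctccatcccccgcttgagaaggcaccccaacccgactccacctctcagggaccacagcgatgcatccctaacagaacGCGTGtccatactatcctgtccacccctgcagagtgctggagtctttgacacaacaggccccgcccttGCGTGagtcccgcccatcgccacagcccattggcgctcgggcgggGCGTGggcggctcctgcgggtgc

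A core was present in 25 of the 31 windows (80.6%), against 54.7% of the 12016 windows of genes tested and 38.6% of all 27025 windows. The ACGTG form was in 14 of 31 (45.2%) against 21.2% of genes tested. The palindrome CACGTG was in 6 of 31 (19.4%) against 8.29%. Ldha and Bnip3 had the most matches, 5 each, and the Ldha window holds CACGTG at 2 places. Of the 18 genes lower in NB2i against −F, 14 had a core (77.8%), and of the 6 that were higher, 5 had one (83.3%). The Hk1 window had none. Both cores contain the pair CG, and GC content in the windows ran from 36.4% (Pfkm) to 76.4% (Slc16a1). The shares were not matched for GC content, so its part in the differences was not tested. A match is a string of letters in this window and shows no binding.

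Across the 4 conditions, most of these genes were lowest in NB2i. By mean FPKM, 24 of the 32 had their lowest level in NB2i, where 35.3% of all genes tested were lowest. The 24 include near ties such as Hk2, Gapdh and Slc2a3, which did not pass the test between NB2i and −F. The highest level was in −F for 16 of the 32, where 31.8% of all genes were highest. None of the 32 was lowest in F. Their summed level was 13015 and 12710.0 FPKM in −F, 12117 and 12008 in F, 11034 and 11489 in F2i, and 8811 and 8451 in NB2i. As a share of all FPKM in the sample, this was 2.65% and 2.67% in −F and 1.80% and 1.73% in NB2i. The sum is carried by a few very abundant enzymes, with 4 of the 32 genes among the 100 highest in −F and 4 in NB2i. Gapdh held rank 3 among all genes in both −F and NB2i. Without Gapdh the 15 other enzymes from hexokinase to pyruvate kinase summed to 7400 and 7347 FPKM in −F and to 4177 and 4054 in NB2i.

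**Figure D1:**
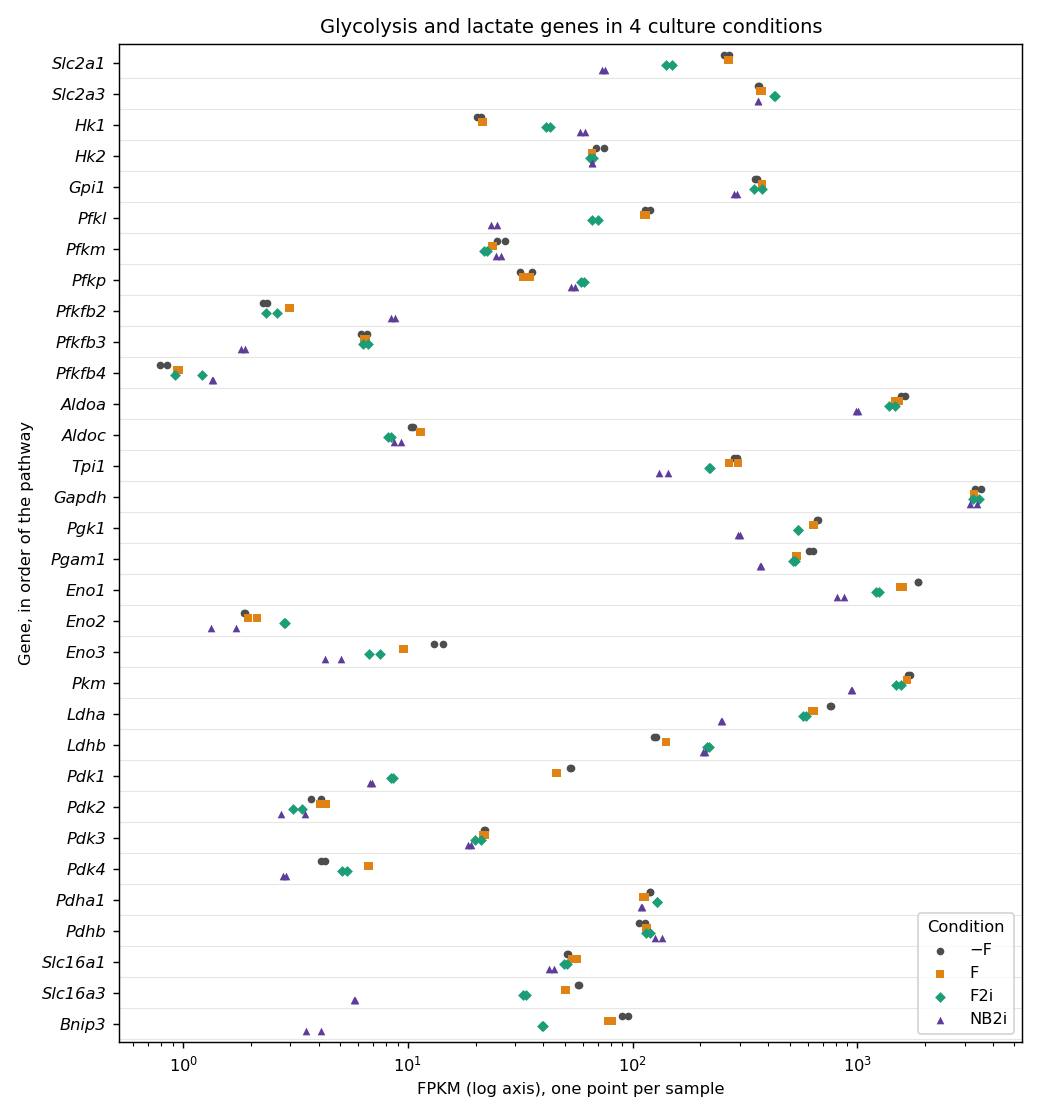
FPKM of the 32 genes in pathway order on a log axis, with one point for each of the 8 samples and a symbol for each condition. The NB2i triangles lie to the left of all other symbols for Slc2a1, Pfkl, Pfkfb3, Pgk1, Ldha, Slc16a3 and Bnip3, and to the right of them for Hk1 and Pfkfb2.

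The first comparison asked what feeders change in serum, and these genes moved little. In F against −F, 11 of 32 genes passed an adjusted p of 0.05 in edgeR's quasi-likelihood test (34.4%), against 40.2% of all genes tested. Of these, 4 were higher (12.5%, against 21.7% of all genes) and 7 lower (21.9%, against 18.5%). None reached 2-fold, which 7.24% of all genes did, 5.59% higher and 1.65% lower. The median log2 fold change of the 32 genes was 0.010, with 2.7e-05 over all genes. These shares lay near those of all genes or below them.

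With 2i added to cells on feeders in serum, more of these genes passed the test than in F against −F, as did more of all genes. In F2i against F, 6 genes were higher (18.8%, against 27.3% of all genes tested) and 13 lower (40.6%, against 27.4%), together 59.4% against 54.8%. Of the 2 past 2-fold (6.25%, against 13.4% of all genes), Hk1 was higher (3.12%, against 6.44%) and Pdk1 lower (3.12%, against 7.00%). Hk1 lay at the limit, and its 2-fold call was lost with no filter on low counts, with limma on FPKM and with a test against 2-fold itself. The median log2 fold change was −0.08 over the 32 genes and −0.0028 over all genes tested.

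Most of these genes were lower in NB2i than in F2i, which share 2i and differ in feeders, serum, base medium and substrate together. In NB2i against F2i, 21 genes were lower (65.6%, against 30.8% of all genes tested) and 4 higher (12.5%, against 33.3%), together 78.1% against 64.1%. The 6 past 2-fold (18.8%, against 19.3% of all genes) were Bnip3, Slc16a3, Pfkfb3, Pfkl and Ldha, which fell (15.6%, against 13.3%), and Pfkfb2, which rose (3.12%, against 6.01%). The median log2 fold change was −0.31, with 0.018 over all genes.

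The conditions without feeders, NB2i and −F, differ in medium, serum, substrate and 2i together, and the parts of these cannot be told apart. Here 18 genes were lower (56.2%, against 35.4% of all genes tested) and 6 higher (18.8%, against 36.9%), together 75.0% against 72.4%. Past 2-fold there were 12 (37.5%, against 27.2%), of which 10 were lower (31.2%, against 16.1%) and 2 higher (6.25%, against 11.1%). The median log2 fold change was −0.26, with 0.0099 over all genes. The 4 comparisons share samples, so their counts are not independent of each other. The small changes of Bnip3 and Slc16a1 in F against −F, of Pfkfb2, Pdk2 and Eno3 in F2i against F, of Pfkm, Pfkp and Pdhb in NB2i against F2i and of Pdk3 in NB2i against −F were not called under every alternative tried. Below, ± after a log2 fold change is an approximate standard error. It was derived as the absolute log2 fold change over the square root of the F statistic of edgeR's test. Adjusted p-values are Benjamini-Hochberg values over all genes tested.

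**Figure D2:**
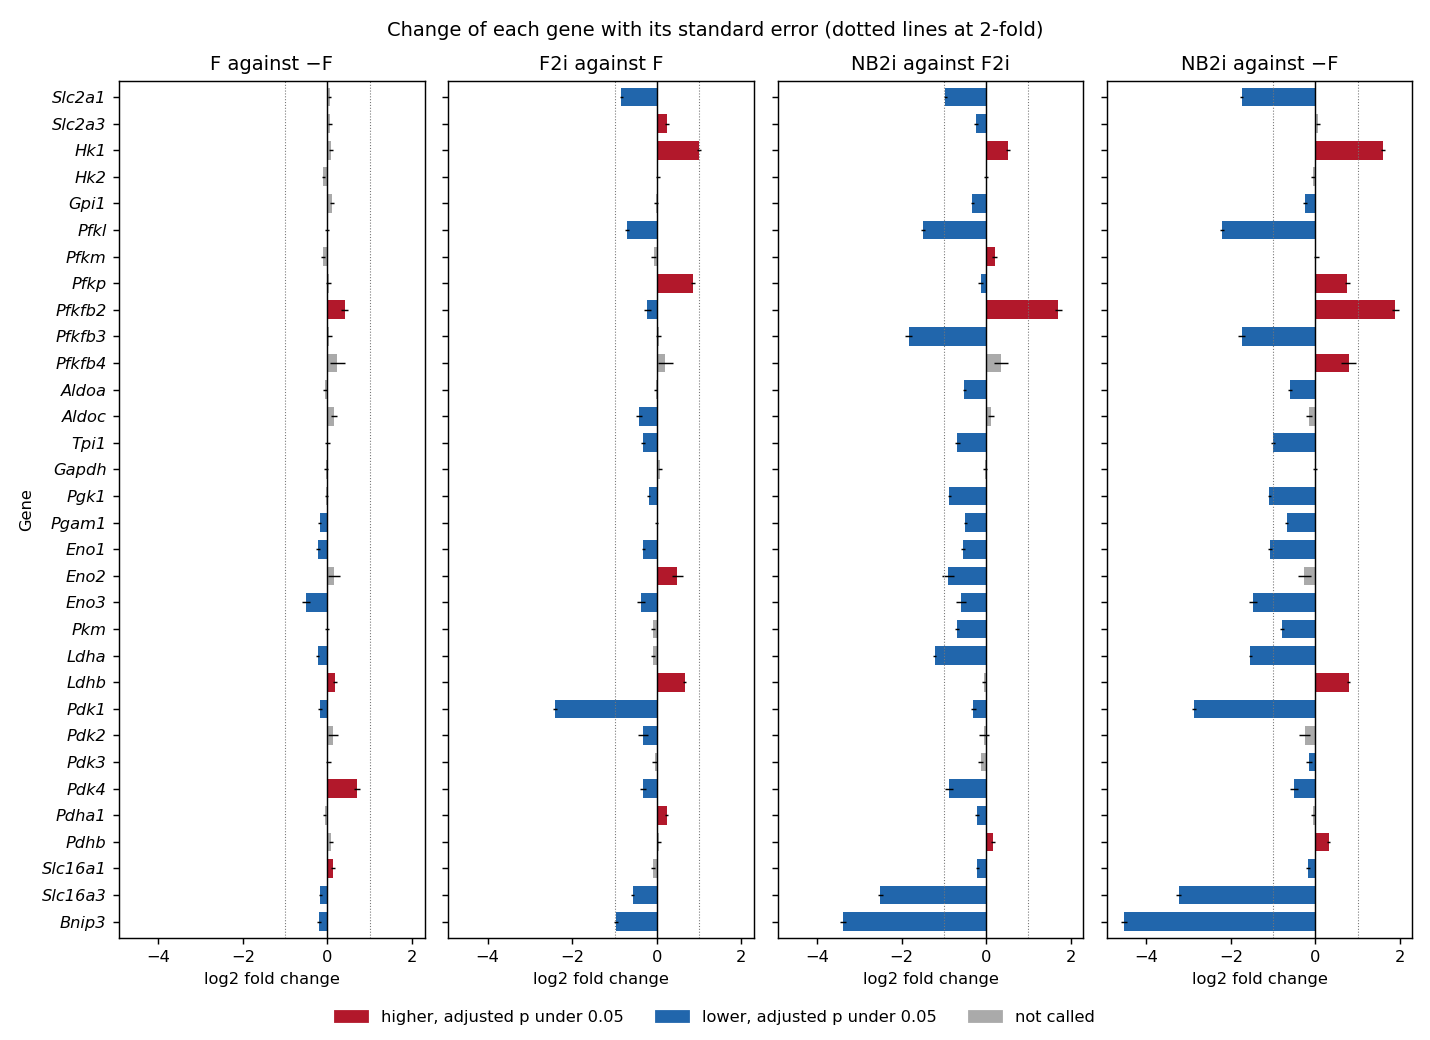
Log2 fold change of each gene with its approximate standard error (error bars, n = 2 samples per condition) in the 4 comparisons, with dotted lines at 2-fold. Blue bars, lower at an adjusted p under 0.05, grow from 7 in F against −F to 21 in NB2i against F2i, while red bars, higher, number 4 to 6 in every panel.

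Glucose enters these cells through the transporters encoded by Slc2a1 (GLUT1) and Slc2a3 (GLUT3). Slc2a1 measured 267 and 255 FPKM in −F, 269 and 264 in F, 141 and 149 in F2i, and 75.31 and 73.22 in NB2i. The −F and F samples overlapped (log2 fold change 0.05 ± 0.042, adjusted p = 0.35), the F2i samples lay below both, and the NB2i samples were lowest. It fell in F2i against F (log2 fold change −0.84 ± 0.043, adjusted p = 3.7e-13), again in NB2i against F2i (log2 fold change −0.96 ± 0.045, adjusted p = 4.6e-14), and was 3.36-fold lower in NB2i than in −F (log2 fold change −1.75 ± 0.045, adjusted p = 6.1e-19). Slc2a3, the high-affinity transporter, measured 365 and 360.0 FPKM in −F, 375 and 369.7 in F, 431 and 427 in F2i, and 361 and 363 in NB2i. It was highest in F2i (log2 fold change 0.24 ± 0.039, adjusted p = 2e-05 against F) and did not pass the test between NB2i and −F (log2 fold change 0.06 ± 0.039, adjusted p = 0.15).

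Hexokinase traps glucose in the cell as glucose 6-phosphate, and its isozymes went separate ways. Hk1 measured 20.20 and 21.05 FPKM in −F, 21.68 and 21.39 in F, 41.16 and 42.83 in F2i, and 61.12 and 58.44 in NB2i. The levels of −F and F lay within 2 FPKM of each other, and F2i and NB2i stood above them in order without overlap. Hk1 rose 2.00-fold in F2i against F (log2 fold change 1.00 ± 0.046, adjusted p = 6.5e-14) and 3.04-fold in NB2i against −F (log2 fold change 1.60 ± 0.046, adjusted p = 3.9e-18), with a smaller rise in NB2i against F2i (log2 fold change 0.52 ± 0.043, adjusted p = 9.5e-10). Hk2 measured 68.71 and 74.38 FPKM in −F, 65.90 and 65.92 in F, 66.73 and 64.86 in F2i, and 65.76 and 65.75 in NB2i, passed the test in none of the 4 comparisons, and had log2 fold changes from −0.10 to 0.04. Gpi1, which isomerises glucose 6-phosphate, measured 359 and 351 FPKM in −F, 375 and 375 in F, 348 and 375 in F2i, and 290.5 and 284 in NB2i, and fell in NB2i against F2i (log2 fold change −0.33 ± 0.043, adjusted p = 1.2e-06).

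Phosphofructokinase catalyses the committed step of glycolysis, and its liver (Pfkl), muscle (Pfkm) and platelet (Pfkp) types did not move together. Pfkl measured 114 and 119 FPKM in −F, 112 and 115 in F, 65.72 and 70.32 in F2i, and 24.98 and 23.34 in NB2i. Its 4 samples in −F and F overlapped, its F2i samples lay below all of these, and its NB2i samples were lowest. Pfkl fell in F2i against F (log2 fold change −0.70 ± 0.046, adjusted p = 2.4e-11) and 2.80-fold in NB2i against F2i (log2 fold change −1.49 ± 0.051, adjusted p = 2e-16), and was 4.60-fold lower in NB2i than in −F (log2 fold change −2.20 ± 0.050, adjusted p = 9.4e-20). Pfkp measured 31.50 and 35.81 FPKM in −F, 34.86 and 32.66 in F, 58.99 and 60.46 in F2i, and 55.63 and 52.99 in NB2i. Both conditions with 2i were above both without it. Pfkp rose in F2i against F (log2 fold change 0.86 ± 0.053, adjusted p = 8.3e-12) and was higher in NB2i than in −F (log2 fold change 0.76 ± 0.053, adjusted p = 2.7e-11), with a small fall between F2i and NB2i (log2 fold change −0.13 ± 0.051, adjusted p = 0.031). Pfkm measured 25.02 and 27.04 FPKM in −F, 23.98 and 23.56 in F, 21.81 and 22.37 in F2i, and 26.04 and 24.67 in NB2i, and passed the test only in NB2i against F2i (log2 fold change 0.20 ± 0.054, adjusted p = 0.0023).

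The bifunctional PFKFB enzymes make and degrade fructose 2,6-bisphosphate, the strongest allosteric activator of phosphofructokinase. Pfkfb2 measured 2.26 and 2.36 FPKM in −F, 2.99 and 2.97 in F, 2.61 and 2.34 in F2i, and 8.72 and 8.44 in NB2i, so both NB2i samples lay far above the other 6. It rose slightly in F against −F (log2 fold change 0.40 ± 0.084, adjusted p = 0.00062), fell slightly in F2i against F (log2 fold change −0.22 ± 0.083, adjusted p = 0.029), and rose 3.28-fold in NB2i against F2i (log2 fold change 1.71 ± 0.073, adjusted p = 9.7e-15) and 3.72-fold in NB2i against −F (log2 fold change 1.90 ± 0.074, adjusted p = 8.1e-16). Pfkfb3, the form with mostly kinase activity, measured 6.18 and 6.56 FPKM in −F, 6.39 and 6.48 in F, 6.30 and 6.65 in F2i, and 1.88 and 1.80 in NB2i. Its 6 samples in the other conditions lay close together and both NB2i samples stood below them. Pfkfb3 fell 3.57-fold in NB2i against F2i (log2 fold change −1.84 ± 0.084, adjusted p = 3.3e-14) and 3.36-fold against −F (log2 fold change −1.75 ± 0.084, adjusted p = 3.6e-14). Pfkfb4 was the least abundant of the 32 genes, at 0.85 and 0.79 FPKM in −F, 0.94 and 0.96 in F, 0.92 and 1.21 in F2i, and 1.34 and 1.36 in NB2i, with 55 to 95 counts per sample. It was higher in NB2i than in −F (log2 fold change 0.78 ± 0.18, adjusted p = 0.00043).

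Aldolase splits fructose 1,6-bisphosphate and triose phosphate isomerase interconverts the products. Aldoa, the main aldolase, measured 1626 and 1561 FPKM in −F, 1525 and 1472 in F, 1389.9 and 1469 in F2i, and 1009.8 and 983 in NB2i, with NB2i well below the rest, and fell there (log2 fold change −0.51 ± 0.043, adjusted p = 1.2e-09 against F2i). The minor aldolase Aldoc measured 10.34 and 10.52 FPKM in −F, 11.48 and 11.28 in F, 8.39 and 8.19 in F2i, and 9.29 and 8.67 in NB2i, and fell in F2i against F (log2 fold change −0.42 ± 0.070, adjusted p = 3e-05). Tpi1 measured 291 and 282 FPKM in −F, 295 and 269 in F, 219 and 221 in F2i, and 143 and 131 in NB2i. It fell in F2i against F (log2 fold change −0.32 ± 0.049, adjusted p = 1e-05) and in NB2i against F2i (log2 fold change −0.68 ± 0.050, adjusted p = 1.3e-10), and in NB2i against −F it lay just short of 2-fold, at 1.99-fold lower (log2 fold change −0.996 ± 0.050, adjusted p = 7.3e-14).

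Gapdh oxidises glyceraldehyde 3-phosphate and is often used as a reference gene. It measured 3564 and 3354 FPKM in −F, 3303 and 3305 in F, 3270.0 and 3466 in F2i, and 3409 and 3163 in NB2i, so all 8 samples lay between 3163 and 3564 FPKM, and passed the test in no comparison (log2 fold change −0.0061 ± 0.047, adjusted p = 0.92 in NB2i against −F). The next enzymes did fall. Pgk1, which makes the first ATP of the pathway, measured 658 and 666 FPKM in −F, 643 and 636 in F, 546 and 545 in F2i, and 293 and 301 in NB2i, with NB2i below all other samples. It fell in NB2i against F2i (log2 fold change −0.87 ± 0.040, adjusted p = 3.5e-14) and was 2.13-fold lower than in −F (log2 fold change −1.09 ± 0.040, adjusted p = 2.9e-16). Pgam1, the mutase, measured 636 and 608 FPKM in −F, 535 and 541 in F, 518 and 528 in F2i, and 369 and 374 in NB2i, and was lower in F than in −F (log2 fold change −0.19 ± 0.040, adjusted p = 0.00077) and in NB2i than in −F (log2 fold change −0.68 ± 0.041, adjusted p = 1.7e-12).

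Enolase makes phosphoenolpyruvate, and nearly all of its FPKM came from Eno1 (99.2 ± 0.043% in −F and 99.3 ± 0.071% in NB2i). Eno1 measured 1862 and 1855 FPKM in −F, 1593 and 1552 in F, 1212 and 1247 in F2i, and 874 and 808 in NB2i. The conditions followed one another downwards without overlap, in the order −F, F, F2i and NB2i. Eno1 fell in F against −F (log2 fold change −0.22 ± 0.044, adjusted p = 0.00042), in F2i against F (log2 fold change −0.32 ± 0.044, adjusted p = 3e-06) and in NB2i against F2i (log2 fold change −0.54 ± 0.044, adjusted p = 7.3e-10), and was 2.11-fold lower in NB2i than in −F (log2 fold change −1.08 ± 0.045, adjusted p = 2.8e-15). The retrocopy Eno1b, which shares sequence with Eno1, held 0.022% to 1.62% of their summed counts, and adding its counts to those of Eno1 changed no call. Eno3, the muscle form, ran in the same order at 14.28 and 13.04 FPKM in −F, 9.46 and 9.56 in F, 6.73 and 7.51 in F2i, and 4.27 and 5.03 in NB2i. It fell in F against −F (log2 fold change −0.51 ± 0.086, adjusted p = 6.4e-05) and was 2.78-fold lower in NB2i than in −F (log2 fold change −1.47 ± 0.098, adjusted p = 1.1e-11). Eno2, the neuronal form, measured 1.86 and 1.89 FPKM in −F, 2.12 and 1.95 in F, 2.85 and 2.81 in F2i, and 1.72 and 1.33 in NB2i, so it was highest in F2i, and fell from there to NB2i (log2 fold change −0.90 ± 0.14, adjusted p = 6.1e-06).

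Pkm, the pyruvate kinase gene whose M1 and M2 transcripts are not separated in these values, measured 1682 and 1720.4 FPKM in −F, 1656 and 1659 in F, 1485 and 1558 in F2i, and 949 and 933 in NB2i. Only NB2i lay well apart, and Pkm fell there against F2i (log2 fold change −0.69 ± 0.042, adjusted p = 5e-12) and against −F (log2 fold change −0.79 ± 0.042, adjusted p = 2.2e-13). Lactate dehydrogenase showed the contrast between isozymes again. Ldha, whose subunit favours lactate formation, measured 762 and 752 FPKM in −F, 626 and 641 in F, 574 and 588 in F2i, and 248 and 249 in NB2i. It fell in F against −F (log2 fold change −0.24 ± 0.039, adjusted p = 5.8e-05) and 2.33-fold in NB2i against F2i (log2 fold change −1.22 ± 0.041, adjusted p = 1.6e-16), and was 2.91-fold lower in NB2i than in −F (log2 fold change −1.54 ± 0.041, adjusted p = 1.1e-18). Ldhb, whose subunit favours pyruvate formation, measured 127 and 125 FPKM in −F, 141 and 141 in F, 214 and 218 in F2i, and 209 and 206 in NB2i, with both 2i conditions above both others. It rose in F2i against F (log2 fold change 0.66 ± 0.041, adjusted p = 8.4e-12), did not pass the test in NB2i against F2i (log2 fold change −0.05 ± 0.040, adjusted p = 0.28), and was 1.73-fold higher in NB2i than in −F (log2 fold change 0.79 ± 0.041, adjusted p = 1.4e-13).

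Pyruvate dehydrogenase kinases inactivate pyruvate dehydrogenase. Pdk1, a target of hypoxia-inducible factor, measured 53.01 and 52.48 FPKM in −F, 45.65 and 46.12 in F, 8.37 and 8.58 in F2i, and 6.94 and 6.77 in NB2i. Its 4 samples with 2i stood far below its 4 samples without it, and the largest difference was between F and F2i. Pdk1 fell 5.27-fold in F2i against F (log2 fold change −2.40 ± 0.046, adjusted p = 4e-20), a little more in NB2i against F2i (log2 fold change −0.30 ± 0.055, adjusted p = 7.4e-05), and was 7.34-fold lower in NB2i than in −F (log2 fold change −2.88 ± 0.047, adjusted p = 5.9e-22). Pdk4, induced by fasting in many tissues, measured 4.09 and 4.29 FPKM in −F, 6.71 and 6.66 in F, 5.09 and 5.35 in F2i, and 2.87 and 2.78 in NB2i. It had the largest rise of the 32 genes in F against −F (log2 fold change 0.70 ± 0.077, adjusted p = 2.6e-07) and fell in NB2i against F2i (log2 fold change −0.88 ± 0.086, adjusted p = 1.2e-08). Pdk2 measured 4.09 and 3.71 FPKM in −F, 4.07 and 4.31 in F, 3.09 and 3.38 in F2i, and 2.73 and 3.50 in NB2i, and fell in F2i against F (log2 fold change −0.33 ± 0.12, adjusted p = 0.025), with overlapping F2i and NB2i samples. Pdk3 measured 21.71 and 22.03 FPKM in −F, 22.08 and 21.63 in F, 21.13 and 19.95 in F2i, and 18.49 and 19.09 in NB2i, and passed the test only in NB2i against −F (log2 fold change −0.15 ± 0.060, adjusted p = 0.029).

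The subunits of the enzyme that these kinases act on changed little. Pdha1, which carries the phosphorylation sites, measured 119 and 119 FPKM in −F, 111 and 113 in F, 128 and 129 in F2i, and 109 and 111 in NB2i, and was highest in F2i (log2 fold change 0.24 ± 0.040, adjusted p = 3.1e-05 against F). Pdhb measured 113 and 107 FPKM in −F, 115 and 116 in F, 115 and 119 in F2i, and 126 and 135 in NB2i, and was higher in NB2i than in −F (log2 fold change 0.31 ± 0.046, adjusted p = 3e-06). Lactate leaves through the monocarboxylate transporters, of which Slc16a1 (MCT1) carries it in both directions and Slc16a3 (MCT4) serves export from glycolytic cells. Slc16a1 measured 51.56 and 51.18 FPKM in −F, 53.59 and 56.81 in F, 50.98 and 49.61 in F2i, and 42.52 and 44.48 in NB2i, and fell slightly in NB2i against F2i (log2 fold change −0.20 ± 0.044, adjusted p = 0.00036). Slc16a3 measured 57.34 and 57.59 FPKM in −F, 50.75 and 50.01 in F, 32.68 and 33.36 in F2i, and 5.81 and 5.74 in NB2i, in 4 levels without overlap, and its promoter window had 2 cores, the nearest 14 bases before the start. It fell in F2i against F (log2 fold change −0.57 ± 0.044, adjusted p = 3.4e-10) and 5.66-fold in NB2i against F2i (log2 fold change −2.50 ± 0.059, adjusted p = 3.3e-19), and was 9.44-fold lower in NB2i than in −F (log2 fold change −3.24 ± 0.056, adjusted p = 1.2e-21).

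Bnip3, which encodes a receptor on the mitochondrial outer membrane for mitophagy and is induced in hypoxia, had the largest change of the 32 genes. Bnip3 (Entrez ID 12176, mm10 chromosome 7, from 138890836 to 138909506) measured 94.95 and 89.42 FPKM in −F, 80.91 and 77.80 in F, 39.60 and 40.03 in F2i, and 4.09 and 3.51 in NB2i. Each condition lay below the one before it, with no overlap. It fell in F against −F (log2 fold change −0.19 ± 0.045, adjusted p = 0.0017), in F2i against F (log2 fold change −0.96 ± 0.049, adjusted p = 3.8e-13) and 10.4-fold in NB2i against F2i (log2 fold change −3.38 ± 0.077, adjusted p = 1.9e-19), and was 23.1-fold lower in NB2i than in −F (log2 fold change −4.53 ± 0.071, adjusted p = 2.5e-22). The NB2i values rest on no fewer than 126 counts per sample. Of the 5 cores in its promoter window, the nearest lay 35 bases before the start.

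**Figure D3:**
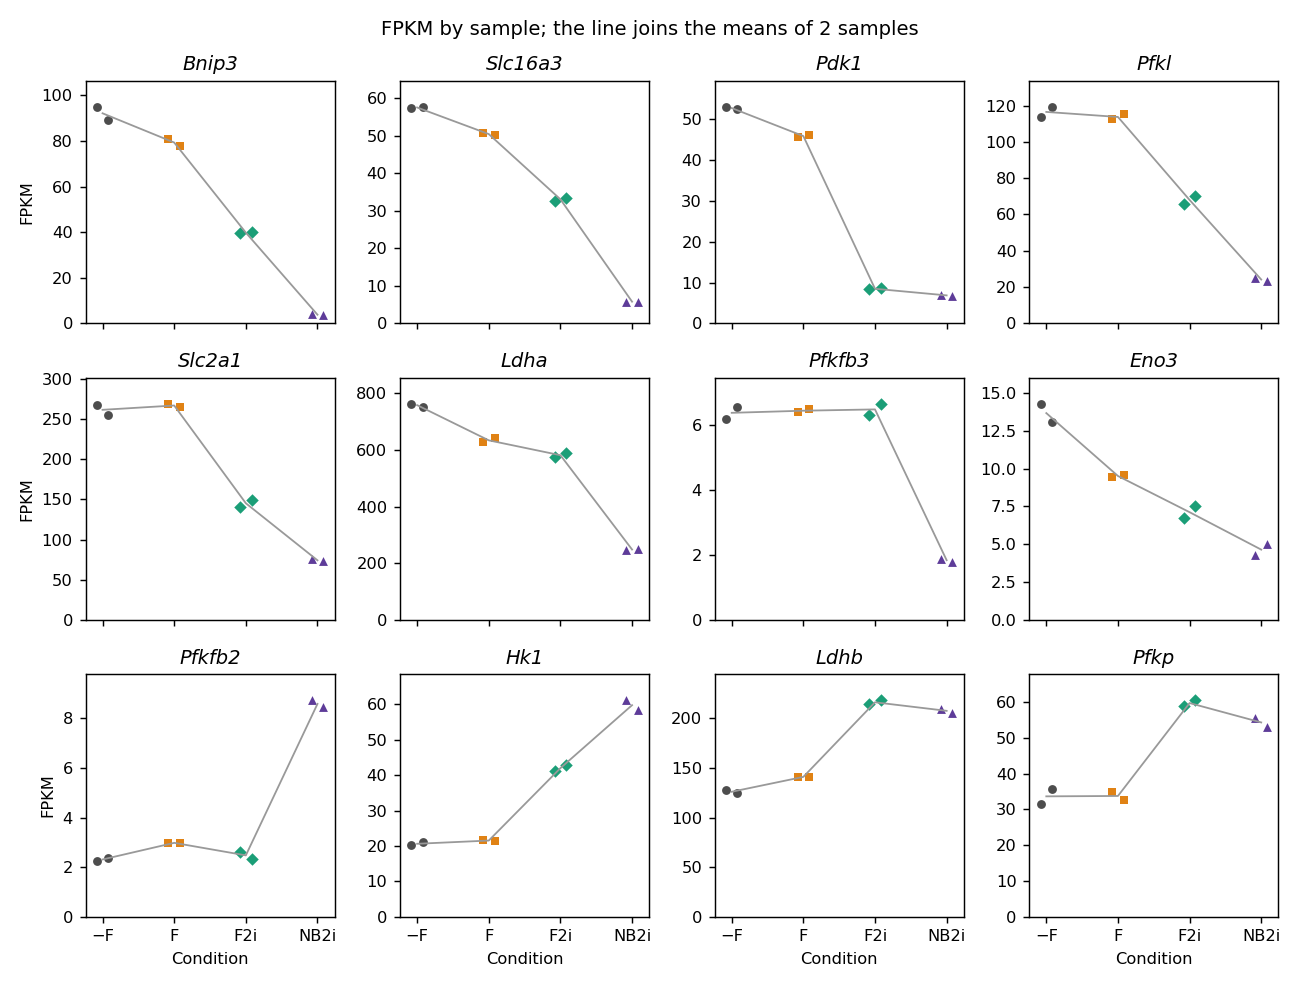
FPKM by sample (linear axes from 0) for 12 genes, with a line through the means of the 2 samples of each condition. Bnip3, Slc16a3, Pfkl and Slc2a1 go down from F through F2i to NB2i, Pdk1 goes down between F and F2i, Pfkfb3 only between F2i and NB2i, and Hk1, Ldhb and Pfkp are higher in both 2i conditions than in −F and F.

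The step with the largest change differed between genes. Slc16a3, Bnip3, Pfkl, Pfkfb3 and Ldha had it between F2i and NB2i, the step without feeders and serum. Pdk1, Hk1, Pfkp and Ldhb had it between F and F2i, where 2i was added. In F against −F, Pdk4, Eno3 and Pfkfb2 had log2 fold changes of 0.70, −0.51 and 0.40, and all other called genes lay within 0.25 of 0. The sum of the 18 fibroblast markers moved at each of these 3 steps. It went from 48.0 to 48.9 FPKM in −F to 384 to 392 in F, 828 to 837 in F2i and 3.60 to 4.55 in NB2i. Single markers did not all follow the sum. In F2i against F, 13 of all 20 markers were higher, 1 (Pdgfra) was lower and 6 were not called. In NB2i against −F, where neither condition has feeders, the same sums were 3.60 to 4.55 and 48.0 to 48.9 FPKM. Tagln alone gave 30.26 and 29.11 FPKM of the −F sums, while Postn, Dcn and S100a4 were at or below 0.17 FPKM there. Of all 20 markers, 11 were lower in NB2i than in −F, 3 were higher and 6 were not called.

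Isozyme shares describe these opposite movements on a scale that cancels depth. A share is the FPKM of one isozyme over the summed FPKM of its family among the 32 genes, given as mean ± SD (n = 2), with no test because 2 samples against 2 cannot give an exact permutation p under 0.333. Of 23 isozymes in 9 families, 15 moved by more than 10 percentage points between conditions, and 15 did when shares were taken from counts. In a family of 2 isozymes both shares move by the same amount, so a pair past this limit adds 2 to the count. By counts Pfkm dropped out (10.5 points by FPKM, 8.14 by counts) and Pdk4 came in (8.87 and 12.1 points).
Slc2a1 went from 41.9 ± 0.54% of the transporter FPKM in −F to 25.3 ± 0.89% in F2i and 17.0 ± 0.34% in NB2i. Hk1 went from 22.4 ± 0.47% of hexokinase FPKM in −F to 39.0 ± 1.1% in F2i and 47.6 ± 0.79% in NB2i. By counts the Hk1 share in NB2i was 40.5%. Among phosphofructokinases, Pfkl held 66.1 ± 0.94% in −F and 23.3 ± 0.22% in NB2i. Pfkp took the first place instead, with 19.1 ± 0.83% in −F and 52.3 ± 0.22% in NB2i.
Among the PFKFB genes of the 32, Pfkfb2 replaced Pfkfb3 as the main one in NB2i alone, with 24.7 ± 2.6% in F2i and 72.9 ± 0.19% in NB2i. Pfkfb1 is outside the 32 and not in these shares. It measured 5.18 and 4.70 FPKM in −F, 3.50 and 3.20 in F2i, and 5.54 and 6.47 in NB2i. Ldhb went from 14.3 ± 0.084% of lactate dehydrogenase FPKM in −F through 27.1 ± 0.096% in F2i to 45.5 ± 0.36% in NB2i. Pdk1 held 63.8 ± 0.24% of PDK FPKM in −F, 58.4 ± 0.31% in F and 22.6 ± 0.58% in F2i, where Pdk3 led with 54.8 ± 1.8%. Slc16a1 went from 47.2 ± 0.21% of the monocarboxylate transporters in −F to 88.3 ± 0.42% in NB2i. Shares depend on transcript length, and by counts Pdk1 (40.1%) stayed ahead of Pdk3 (36.9%) in F2i and Slc16a1 led in −F as well (61.9%). In aldolase, Aldoa held 99.3 ± 0.027% in −F and 99.1 ± 0.026% in NB2i.

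**Figure D4:**
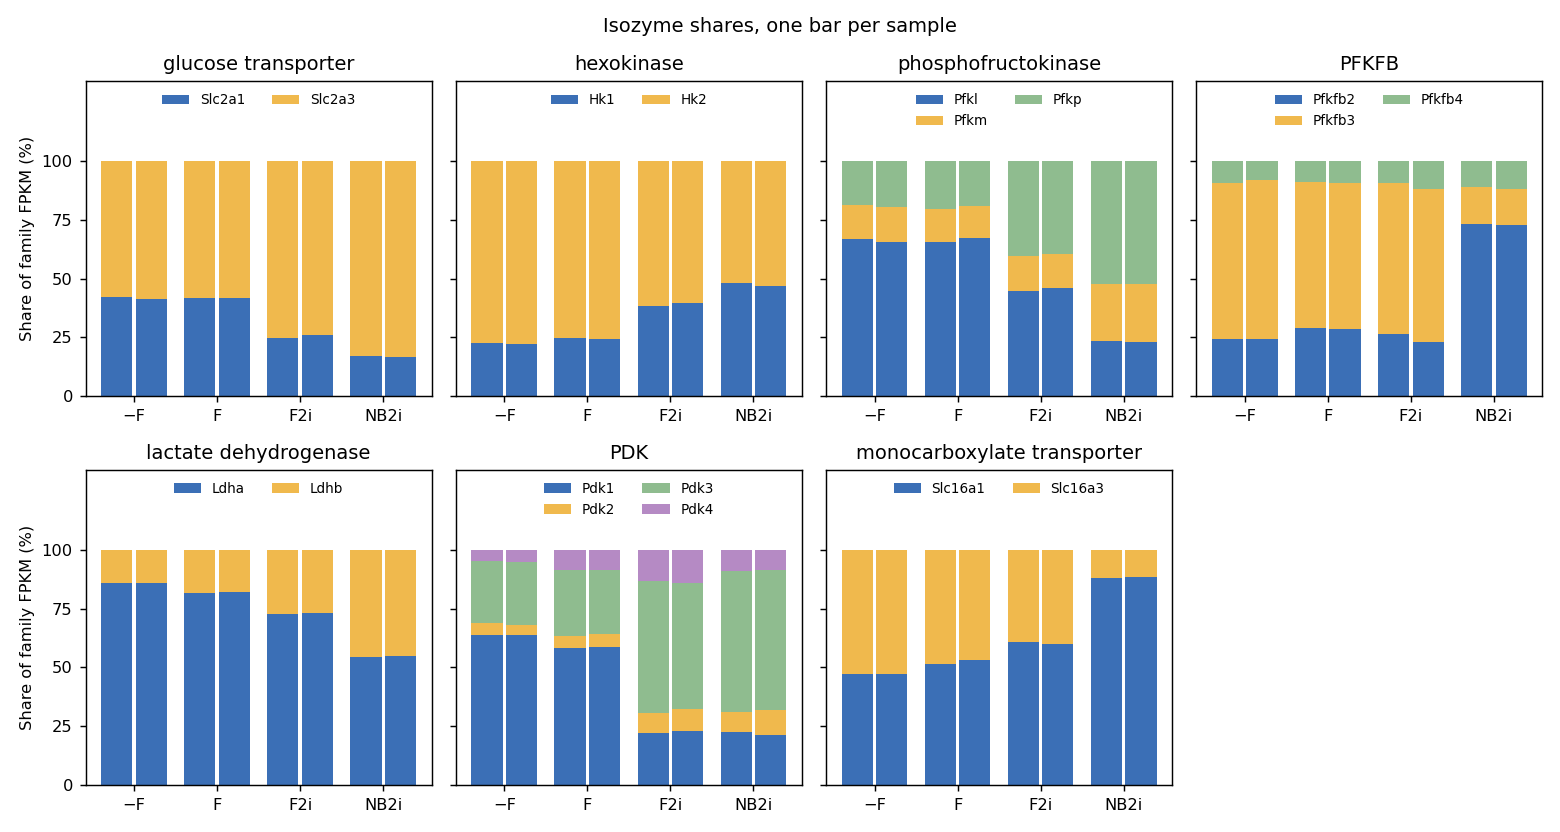
Share of family FPKM (%) held by each isozyme in 7 families, with 1 stacked bar for each of the 8 samples. Replicate bars are nearly alike, and the leading gene changes from Pfkl to Pfkp, from Pfkfb3 to Pfkfb2, from Pdk1 to Pdk3 and from Slc16a3 to Slc16a1 between −F and NB2i by FPKM.

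Neighbouring pathways and regulators were taken from lists, and the values here are for NB2i against −F unless another comparison is named. Of all genes tested in that comparison, 36.9% were higher and 35.4% lower, with a median log2 fold change of 0.0099. The higher and lower shares of all genes were 33.3% and 30.8% in NB2i against F2i and 27.3% and 27.4% in F2i against F. In F against −F they were 21.7% and 18.5%. Among 20 targets of hypoxia-inducible factor outside glycolysis, 15 were lower and 4 higher, with a median log2 fold change of −0.56. Adm, which encodes a vasodilator peptide, measured 2.02 and 1.89 FPKM in −F, 3.01 and 2.49 in F, 2.22 and 2.39 in F2i, and 0.11 and 0.26 in NB2i (log2 fold change −3.37 ± 0.35, adjusted p = 1.4e-08). Ankrd37 measured 11.08 and 10.33 FPKM in −F, 10.47 and 10.49 in F, 6.95 and 7.47 in F2i, and 1.07 and 0.81 in NB2i (log2 fold change −3.43 ± 0.18, adjusted p = 1.4e-13). P4ha2, a collagen prolyl hydroxylase, measured 5.96 and 6.28 FPKM in −F, 9.43 and 9.15 in F, 10.92 and 10.60 in F2i, and 1.16 and 1.15 in NB2i (log2 fold change −2.33 ± 0.12, adjusted p = 8.9e-14), and Egln3, an oxygen-sensing prolyl hydroxylase, 29.22 and 28.48 FPKM in −F, 31.09 and 32.91 in F, 12.94 and 14.47 in F2i, and 5.73 and 5.68 in NB2i (log2 fold change −2.27 ± 0.069, adjusted p = 1e-17). These 4 were at their lowest in NB2i without overlap, and Egln3 had already fallen in F2i against F (log2 fold change −1.18 ± 0.059, adjusted p = 2.6e-13). The 4 that were higher, named after their values were seen, were Vegfa, Kdm3a, Ddit4 and Ak4. Vegfa, a growth factor for blood vessels, measured 12.70 and 12.12 FPKM in −F, 20.43 and 20.40 in F, 23.98 and 24.16 in F2i, and 31.23 and 33.03 in NB2i (log2 fold change 1.43 ± 0.050, adjusted p = 1.3e-16), lowest in −F and highest in NB2i, and Kdm3a, a histone demethylase, rose as well (log2 fold change 0.71 ± 0.044, adjusted p = 3.4e-12). Against F2i, 16 of the 20 were lower in NB2i and 3 higher (median −0.81), while in F2i against F 9 were lower and 7 higher (median −0.20) and in F against −F 4 were lower and 11 higher (median 0.15).

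Regulators of glycolytic genes were 10 lower and 5 higher of 16 (median −0.21), and in F2i against F 11 fell and 3 rose (median −0.39). Myc, a transcription factor that raises glycolytic genes in many cells, measured 10.50 and 11.89 FPKM in −F, 7.09 and 7.29 in F, 1.80 and 2.21 in F2i, and 0.95 and 0.89 in NB2i (log2 fold change −3.54 ± 0.12, adjusted p = 1.4e-16). The RNA-binding protein gene Lin28b measured 10.62 and 10.89 FPKM in −F, 7.65 and 7.38 in F, 2.17 and 2.11 in F2i, and 2.16 and 2.38 in NB2i (log2 fold change −2.18 ± 0.072, adjusted p = 4.4e-17), and its relative Lin28a 135 and 140.1 FPKM in −F, 119 and 122 in F, 56.35 and 56.42 in F2i, and 46.67 and 47.83 in NB2i (log2 fold change −1.47 ± 0.042, adjusted p = 4.2e-18). Txnip, whose product restrains glucose uptake, measured 223 and 225 FPKM in −F, 183 and 179.7 in F, 73.01 and 74.33 in F2i, and 61.99 and 61.23 in NB2i (log2 fold change −1.80 ± 0.041, adjusted p = 1.1e-19). These 4 were lower in both 2i conditions than in both others, without overlap. Mycn, a more abundant relative of Myc named after its values were seen, measured 101 and 98.12 FPKM in −F, 120 and 128 in F, 43.52 and 44.46 in F2i, and 44.88 and 45.44 in NB2i. It was lower in NB2i than in −F (log2 fold change −1.07 ± 0.044, adjusted p = 2.3e-15). In F against −F it rose (log2 fold change 0.34 ± 0.041, adjusted p = 9.9e-07), where Myc fell (log2 fold change −0.62 ± 0.084, adjusted p = 4.4e-06). The 5 that were higher, also named after their values were seen, were Vhl, Epas1, Hif1a, Esrrb and Mlx. Vhl, which marks hypoxia-inducible factor for degradation, rose in NB2i against −F (log2 fold change 1.35 ± 0.070, adjusted p = 1.3e-13), as did the hypoxia-inducible factor genes Epas1 (log2 fold change 0.85 ± 0.050, adjusted p = 1.3e-12) and Hif1a (log2 fold change 0.60 ± 0.044, adjusted p = 5.2e-11).

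Of 20 other isozymes of the pathway, 14 were tested, 8 were higher and 3 lower (median 0.40). Slc2a10 had 0.26 and 0.22 FPKM in F2i, with 0.00 and 0.01 in NB2i, and fell (adjusted p = 0.00013), its fold resting on almost no counts. Pklr, the liver pyruvate kinase, reached 0.73 FPKM and was lower in NB2i than in −F (log2 fold change −2.89 ± 0.40, adjusted p = 1.3e-06). Ldhd, a D-lactate dehydrogenase, measured 1.55 and 1.05 FPKM in −F, 0.66 and 0.72 in F, 0.18 and 0.37 in F2i, and 1.90 and 1.83 in NB2i, and rose in NB2i against F2i (log2 fold change 2.75 ± 0.28, adjusted p = 3e-08). Hkdc1 stayed at or below 0.45 FPKM and rose (log2 fold change 1.87 ± 0.43, adjusted p = 0.00061). Adpgk, an ADP-dependent glucokinase named after its values were seen, was well above these and rose as well, at 32.63 and 29.42 FPKM in −F, 28.26 and 28.72 in F, 32.45 and 33.32 in F2i, and 51.05 and 51.78 in NB2i (log2 fold change 0.80 ± 0.049, adjusted p = 2.9e-12).

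Of 10 genes of the pentose phosphate pathway, 7 were higher and 1 lower (median 0.53), and against F2i 8 were higher and 1 lower (median 0.30). H6pd measured 6.34 and 6.23 FPKM in −F, 6.15 and 6.84 in F, 8.76 and 8.41 in F2i, and 15.39 and 14.59 in NB2i (log2 fold change 1.32 ± 0.063, adjusted p = 3.6e-14), Tigar, a fructose bisphosphatase that diverts sugar to this pathway, 16.23 and 15.08 FPKM in −F, 18.83 and 18.01 in F, 27.14 and 28.21 in F2i, and 31.21 and 31.99 in NB2i (log2 fold change 1.08 ± 0.050, adjusted p = 1.7e-14), and Pgd, 6-phosphogluconate dehydrogenase, 90.98 and 86.46 FPKM in −F, 83.15 and 82.78 in F, 95.80 and 96.63 in F2i, and 157 and 159.7 in NB2i (log2 fold change 0.90 ± 0.041, adjusted p = 1.3e-14). The fourth, Tktl1, stayed at or below 0.37 FPKM and fell in NB2i against F2i (log2 fold change −2.13 ± 0.63, adjusted p = 0.0058). All 6 genes of the serine and glycine branch rose in NB2i against F2i (median 0.61), and in NB2i against −F 4 were higher and 2 lower (median 0.41). Shmt2 measured 74.87 and 75.95 FPKM in −F, 70.46 and 69.11 in F, 86.33 and 94.57 in F2i, and 152 and 146 in NB2i (log2 fold change 1.05 ± 0.046, adjusted p = 8.1e-15) and Gldc, the glycine decarboxylase, 105 and 116 FPKM in −F, 79.12 and 76.66 in F, 42.45 and 41.76 in F2i, and 52.80 and 51.06 in NB2i (log2 fold change −1.02 ± 0.047, adjusted p = 1.5e-14). Psph (log2 fold change 0.95 ± 0.065, adjusted p = 3.2e-11) and Psat1 (log2 fold change 0.78 ± 0.041, adjusted p = 3.4e-13) rose against F2i.

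For the entry of pyruvate into mitochondria, 5 of 8 genes were higher and 1 lower (median 0.30). Pdp2, a phosphatase that reactivates pyruvate dehydrogenase, measured 4.02 and 4.44 FPKM in −F, 3.87 and 3.79 in F, 11.90 and 10.99 in F2i, and 13.83 and 13.55 in NB2i (log2 fold change 1.76 ± 0.074, adjusted p = 3.2e-15) and rose in F2i against F (log2 fold change 1.61 ± 0.077, adjusted p = 1e-13), the step at which Pdk1 fell. The other phosphatase, Pdp1, went the opposite way at 3.16 and 2.79 FPKM in −F, 2.51 and 2.73 in F, 2.60 and 2.14 in F2i, and 0.92 and 0.87 in NB2i (log2 fold change −1.66 ± 0.13, adjusted p = 1.5e-10). The mitochondrial pyruvate carrier genes Mpc1 (log2 fold change 0.90 ± 0.11, adjusted p = 2.9e-07) and Mpc2 (log2 fold change 0.70 ± 0.12, adjusted p = 2.3e-05) were higher. In gluconeogenesis, 4 of 6 genes were tested, 2 were higher and 1 lower (median 1.15). Pck2, the mitochondrial phosphoenolpyruvate carboxykinase, measured 14.99 and 14.85 FPKM in −F, 13.70 and 15.19 in F, 21.51 and 21.50 in F2i, and 63.69 and 63.95 in NB2i (log2 fold change 2.16 ± 0.049, adjusted p = 8.7e-20), and Fbp2 (log2 fold change 2.50 ± 0.34, adjusted p = 9.1e-07) rose while Fbp1 (log2 fold change −2.15 ± 0.67, adjusted p = 0.0066) fell, both from levels under 3 FPKM. G6pc3 was higher in NB2i than in F2i (log2 fold change 0.66 ± 0.081, adjusted p = 3.8e-07).

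Of 12 glycogen genes, 3 were higher and 4 lower (median 0.026), while 1 was higher and 8 lower in NB2i against F2i (median −0.29) and 6 were higher and 0 lower in F against −F (median 0.16). Pygb, the brain glycogen phosphorylase, measured 18.70 and 21.50 FPKM in −F, 22.38 and 22.71 in F, 28.17 and 28.56 in F2i, and 45.91 and 42.67 in NB2i (log2 fold change 1.21 ± 0.056, adjusted p = 1.7e-14), and the liver form Pygl measured 1.24 and 1.16 FPKM in −F, 1.81 and 1.63 in F, 1.79 and 1.82 in F2i, and 0.41 and 0.28 in NB2i (log2 fold change −1.73 ± 0.23, adjusted p = 7.2e-07). Pgm2, a phosphoglucomutase, was lower (log2 fold change −1.11 ± 0.059, adjusted p = 1.9e-13), and Epm2a fell in NB2i against F2i (log2 fold change −1.15 ± 0.37, adjusted p = 0.011).

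**Figure D5:**
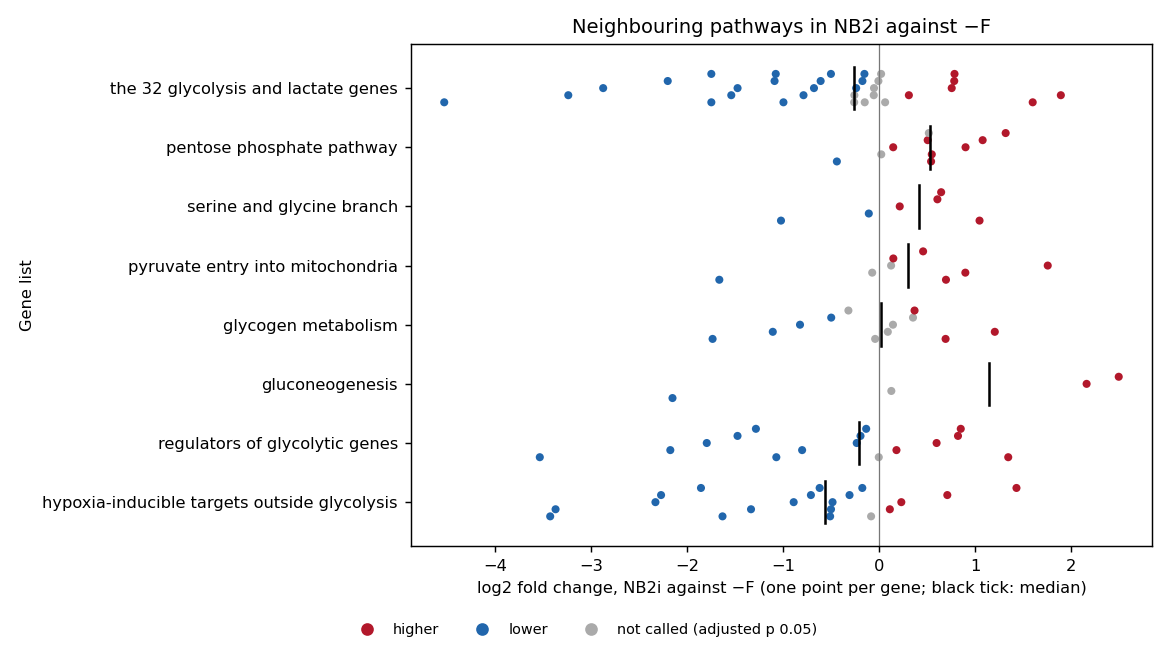
Log2 fold change in NB2i against −F of each gene tested, one point per gene, for the 32 glycolysis and lactate genes and 7 neighbouring lists, with a black tick at the median of each. Medians lie below 0 for the 32 genes (−0.26), the regulators (−0.21) and the hypoxia-inducible targets (−0.56), and above 0.25 for the pentose phosphate, serine and glycine, pyruvate entry and gluconeogenesis lists.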

How the data were processed

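RNA of 8 samples was sequenced by the authors as single-end reads on a BGISEQ-500, mapped to mm10 with Bowtie2 and quantified with RSEM, with versions not given in the sources used here. The expected counts deposited by the authors are RSEM's estimates and were not whole for 29.8% of values (tolerance 0.001). FPKM as deposited scales the same estimate by transcript length and depth. Genes missing from a sample's list were taken as 0. Expected counts were rounded and fitted with edgeR 4.0.16 (R 4.3.3, quasi-likelihood test, TMM factors 0.977 to 1.03, condition as the only term, all 8 samples), after leaving out genes that did not reach 10 counts in 2 or more samples. Benjamini-Hochberg adjustment ran over all 15287 genes tested, and a gene was called at an adjusted p under 0.05. The biological coefficient of variation was 3.254%, so small changes pass. Replicates differed by more than sampling noise (chi-square per degree of freedom 1.89 to 3.71).

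Samples were grouped by their labels. The 32 genes, the lists and the tests were chosen with earlier results of these data known, so the counts are descriptions and no list was tested. All 32 genes are named. Full values are given for genes past 2-fold and for up to 6 further called genes with the largest change in a comparison, and up to 4 called genes are named from each list. Feeder content was read from fibroblast markers. Gene positions are on mm10, matched by Entrez ID. The fit was tested on simulated data for F against −F, where 200 of 200 changed genes were recovered with 6 false calls. Changes were planted only in well-expressed genes, with the same spread for all genes. Scarce genes such as Pfkfb4 and small changes were therefore not covered. Alternatives were DESeq2 1.42.0, its size factors, other filters, only the groups compared, a replicate block, each sample left out, limma 3.58.1 on log2(FPKM + 1) and log2(FPKM + 0.1) for genes reaching 0.5 FPKM in 2 or more samples, an adjusted p under 0.01, and glmTreat against a log2 fold change of 1. Summing Eno1 with Eno1b was chosen after the data had been seen.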

Additional observations from a re-analysis of the deposited data

How the results depend on the processing

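Over 18 alternatives and 128 gene comparisons, 2193 of 2304 log2 fold changes kept their direction and their side of the threshold, 36 lost the call, 26 gained one and 49 changed sign. The 49 lay in 19 gene comparisons, and 0 were called with or without the alternative (largest size as reported 0.20), and the cause was not tested. Among the counts of called genes, the 1 that moved past 1.5 times was the number past 2-fold in F2i against F, which went from 2 to 1 with no filter on low counts, with limma on log2(FPKM + 1), with limma on log2(FPKM + 0.1) and with glmTreat, as Hk1 lies at the limit. Leaving out 1 sample at a time, the genes higher, lower and past 2-fold numbered 3 to 4, 7 to 9 and 0 to 0 in F against −F, 6 to 6, 11 to 16 and 1 to 2 in F2i against F, 3 to 5, 20 to 21 and 6 to 7 in NB2i against F2i, and 6 to 6, 17 to 19 and 12 to 13 in NB2i against −F. Of the sign changes, 28 came from leaving out 1 sample. In F against −F these ranges were −0.049 to 0.022 for Pfkl, −0.066 to 0.12 for Pfkp, −0.0096 to 0.10 for Pfkfb3, −0.066 to 0.060 for Tpi1 and −0.035 to 0.0015 for Pkm. In F2i against F these ranges were −0.070 to 0.043 for Gpi1, −0.0029 to 0.086 for Pfkfb3, −0.0088 to 0.39 for Pfkfb4, −0.070 to 0.014 for Aldoa and −0.017 to 0.016 for Pgam1. In NB2i against F2i these ranges were −0.016 to 0.021 for Hk2, −0.086 to 0.030 for Gapdh and −0.23 to 0.12 for Pdk2. In NB2i against −F these ranges were −0.12 to 0.0023 for Hk2, −0.038 to 0.078 for Pfkm and −0.057 to 0.060 for Gapdh. The other 21 were these. With limma on log2(FPKM + 1), the log2 fold change became −0.00098 for Pdk3 in F against −F, −0.0026 for Hk2 in F2i against F, −0.00072 for Hk2 in NB2i against F2i, −0.0033 for Slc2a3 in NB2i against −F and −0.036 for Pfkm in NB2i against −F. With limma on log2(FPKM + 0.1), the log2 fold change became −0.0010 for Pdk3 in F against −F, −0.0027 for Hk2 in F2i against F, −0.00073 for Hk2 in NB2i against F2i, −0.0033 for Slc2a3 in NB2i against −F and −0.037 for Pfkm in NB2i against −F. With DESeq2, the log2 fold change became 0.0073 for Pgam1 in F2i against F, −0.013 for Hk2 in NB2i against F2i and −0.0013 for Pfkm in NB2i against −F. With DESeq2 size factors in edgeR, the log2 fold change became 0.0073 for Pgam1 in F2i against F, −0.013 for Hk2 in NB2i against F2i and −0.0013 for Pfkm in NB2i against −F. With at least 10 counts required in every sample, the log2 fold change became 0.0053 for Pgam1 in F2i against F, −0.030 for Hk2 in NB2i against F2i and −0.0063 for Pfkm in NB2i against −F. With only the groups compared, the log2 fold change became 0.0029 for Pgam1 in F2i against F and −0.018 for Hk2 in NB2i against F2i. In fits without 1 replicate, the lone sample of that condition was assumed to vary like the others. Same-numbered replicates did not deviate together (mean r −0.0131 over 6 pairs of conditions, range −0.0467 to 0.0263), and a fit with the replicate block kept all 128 calls. Depth limits Pfkfb4 most, at 55 counts in its lowest sample, and 12 of the 32 genes had under 1000 counts in at least 1 sample. With 2 samples per condition, adjusted p-values rest on the model, since an exact permutation test cannot give a p under 0.333.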

Other observations

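A few genes that share sequence or position with the 32 were listed with counts of their own. The Eno1 retrocopy Eno1b had 33.7 and 15.1 expected counts in −F, 375 and 424 in F, 735 and 701 in F2i, and 35.8 and 23.0 in NB2i. The summed fibroblast markers in the same conditions were 48.0 to 48.9, 384 to 392, 828 to 837 and 3.60 to 4.55 FPKM. Between NB2i and −F, Eno1b did not pass the test (log2 fold change 0.32, edgeR adjusted p = 0.36). Eno1b rose in F against −F (log2 fold change 4.05, edgeR adjusted p = 6.1e-14), while Eno1 fell by 0.22 on the log2 scale. Whether these reads came from feeders was not tested. Hk1os, antisense to Hk1, had 2 to 17 counts per sample against 1731 to 5296 for Hk1, and the strand of the reads was not given in the sources used here. Ldhal6b, an intronless relative of lactate dehydrogenase, had 12 and 11 counts in −F, 18 and 19 in F, 60 and 65 in F2i, and 58 and 69 in NB2i, so that both conditions with 2i lay above both without it. It rose in F2i against F (log2 fold change 1.80, adjusted p = 2.1e-06).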
